A study of Homo sapiens with 14 samples.

Results

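The genes described here encode 9 proteins that bind double-stranded RNA or process microRNAs, namely ILF2, STAU1, STAU2, DHX9, TARBP2, PRKRA, DICER1, DROSHA and DGCR8. They were chosen by symbol, and each was found in 1 of the 21574 rows of the deposited table of expression levels. The cells were labelled as the established human line HepG2, transfected with a scrambled siRNA (control) or with an siRNA against ADAR1 (knockdown, KD). ADAR1, encoded by ADAR, is the enzyme that deaminates adenosine to inosine in double-stranded RNA. The table holds PARS-seq, in which poly-A RNA was probed outside the cell with S1 nuclease, which cuts unpaired bases, or with RNase V1, which cuts paired bases, as well as RNA-seq and Ribo-seq, the sequencing of ribosome-protected fragments. PARS-seq had 2 replicates per condition for each nuclease and Ribo-seq had 2 per condition, while RNA-seq had 1 library per condition. The study calls its replicates biological, but the labels do not say whether they came from separate cultures, and p-values measure the spread between these libraries.

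MicroRNAs are made in steps that begin in the nucleus. The Microprocessor, formed by the ribonuclease DROSHA and its RNA-binding partner DGCR8, cuts a hairpin out of the primary transcript, and the ribonuclease DICER1 trims this hairpin in the cytoplasm, where the double-stranded RNA-binding proteins TARBP2 (TRBP) and PRKRA (PACT) sit beside it. STAU1 and STAU2 are the Staufen proteins, which bind paired RNA and act in the transport and decay of messenger RNAs. DHX9 is a helicase that unwinds paired RNA, and ILF2 (NF45) works in complexes with double-stranded RNA-binding proteins. ADAR1 acts on the same kind of substrate as these proteins.

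Both DICER1 and DGCR8 share their row of the table with microRNA hairpins, and the mature products of those hairpins are shown because the value of a shared row cannot be split between the host gene and the hairpins. DICER1 lies on chromosome 14 from 95552565 to 95624347 on the minus strand of GRCh37, and MIR3173 lies in an intron of its canonical transcript, from 95604256 to 95604323 on the same strand. DGCR8 lies on chromosome 22 from 20067744 to 20099400 on the plus strand. MIR1306, from 20073581 to 20073665, overlaps coding sequence of the canonical DGCR8 transcript, and MIR3618, from 20073269 to 20073356, overlaps an untranslated part of an exon. The DGCR8 messenger RNA is known as a substrate of the Microprocessor, which cuts hairpins near the start of its coding sequence. The mature sequences, from RefSeq on GRCh38.p14, are given 5′ to 3′ with the seed (bases 2 to 8) in capitals, and no seed occurs in more than 1 of them.
hsa-miR-3173-5p: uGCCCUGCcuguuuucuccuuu
hsa-miR-3173-3p: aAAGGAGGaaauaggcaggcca
hsa-miR-1306-5p: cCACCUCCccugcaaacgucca
hsa-miR-1306-3p: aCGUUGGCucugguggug
hsa-miR-3618: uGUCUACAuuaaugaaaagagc

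The other members have rows of their own. On GRCh37, DROSHA is on chromosome 5 from 31400601 to 31532303, TARBP2 on chromosome 12 from 53894705 to 53900215, PRKRA on chromosome 2 from 179296019 to 179316239 and STAU1 on chromosome 20 from 47729876 to 47804904. On chromosome 1 lie ILF2, from 153634264 to 153643504, and DHX9, from 182808482 to 182857117, while STAU2 is on chromosome 8. Exons of genes on the opposite strand overlap exons of ILF2 (SNAPIN), DHX9 (DHX9-AS1), PRKRA (PJVK and CHROMR), DICER1 (DICER1-AS1) and DGCR8 (TRMT2A), among others. Exons of an opposite-strand gene without a symbol overlap those of TARBP2, and exons of such a gene on the same strand overlap those of STAU2. No strand setting is stated for the counting behind the table, so reads of these partners could not be told apart from those of the members.

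ADAR, as the target of the siRNA, was read first. Its PARS-seq level was 40.7 and 46.8 RPKM (mapped reads scaled to the length of the transcript and to the library total) in the control columns and 15.1 in each KD column, and its RNA-seq level was 54.8 RPKM in the control and 15.4 in the KD library. In Ribo-seq it was 43.6 and 55.5 RPKM in the control libraries and 8.73 in the library labelled KD replicate 1, but 44.03 in the library labelled KD replicate 2, which lies between both controls. Ribo-seq differences below are therefore also given without the library labelled KD replicate 2. A check of the labelled line against 8 hepatocyte markers (ALB, AFP, APOA1, APOB, TTR, SERPINA1, FGB and HNF4A) found every one of them under 1 RPKM in all 10 columns. Their summed level was 0 to 0.558 RPKM in the control and 0 to 0.893 RPKM in the KD columns, so the defining markers of a liver line were at or near 0 here. Of 8 markers of blood, fibroblast and endothelial cells, 5 were under 1 RPKM in every column, and COL1A1 reached 54.7 RPKM in the RNA-seq control. In PARS-seq, CD68 fell from 5.03 and 4.02 to 1.48 and 1.71 RPKM (limma, adjusted p = 0.0039). COL1A1, at 19.5 and 29.3 in control and 16.6 and 19.4 in KD, did not pass, and DCN, at 1.57 and 0.828 in control and 0.614 and 0.331 in KD, was too low to test. The summed level of this list was 26.2 and 34.2 RPKM in the PARS-seq controls and 18.7 and 21.5 in KD, 16.6 and 34.2 in the Ribo-seq controls and 14.4 and 25.9 in KD, and 80.6 and 58.6 in RNA-seq control and KD. The sums were lower in KD in PARS-seq and RNA-seq, and their part in the differences below was not tested.

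The levels of the 9 genes spread over a wide range, and ILF2 was at the top in every assay. In the PARS-seq control columns ILF2 was at a mean of 313 RPKM, followed by DROSHA at 76.8, DHX9 at 39.98, STAU1 at 25.7, TARBP2 at 16.4, DICER1 at 13.8, PRKRA at 10.4, DGCR8 at 5.84 and STAU2 at 3.05. No 2 neighbours in this order overlapped between their replicates. KD changed the order at 1 place only, since DICER1 moved from rank 6 to rank 8, below PRKRA and DGCR8. The RNA-seq order was different, with ILF2 at 214 RPKM, DROSHA at 38.1, STAU1 at 31.5, DHX9 at 29.0, TARBP2 at 28.1, PRKRA at 12.7, DGCR8 at 11.7, DICER1 at 2.48 and STAU2 at 2.44 in the control library. In Ribo-seq control libraries the ranges of DHX9 and DROSHA overlapped, as did those of neighbours from STAU1 to DICER1, so their order could not be told there.

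**Figure D1:**
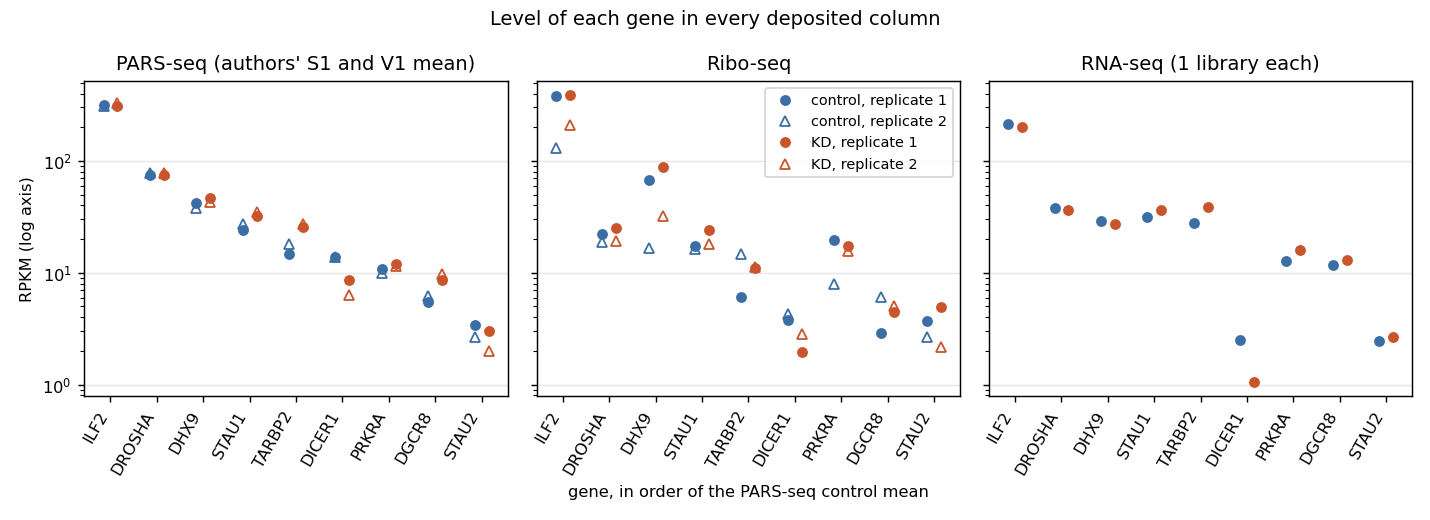
RPKM of the 9 genes on a log axis in PARS-seq (each point the authors' mean over the S1 and V1 library of a replicate), Ribo-seq and RNA-seq, with control in blue, KD in orange, replicate 1 filled and replicate 2 open. ILF2 is highest in every panel, and DICER1 is the gene whose KD points fall below both control points in PARS-seq and Ribo-seq.

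DICER1 had lower values in KD than in control in all 3 assays. Its PARS-seq level was 13.8 and 13.9 RPKM in the control columns and 8.62 and 6.33 in the KD columns. The controls lay close together and both KD values were below them. On the log2(RPKM + 1) scale, which understates changes of low genes, the level fell by 0.82 ± 0.18 (SE, n = 2 against 2, limma, adjusted p = 0.0216). Ribo-seq gave 3.77 and 4.26 RPKM in the controls and 1.94 and 2.81 in the libraries labelled KD replicates 1 and 2. The groups did not overlap there either, with or without the library labelled KD replicate 2, with a log2 difference of −0.58 ± 0.41 that missed the threshold (limma, adjusted p = 1.00). RNA-seq gave 2.48 RPKM in the control and 1.05 in the KD library, a log2 difference of −0.76 with no replicate check. In these bulk samples a lower level per cell and fewer cells with the transcript cannot be told apart. DICER1 was the 1 member past 1.5-fold in RNA-seq, against 9.13% of the 10946 genes compared. It was also the member with the highest PARS-seq level for its RNA-seq level, with a ratio of 5.57 in control and 7.09 in KD. The row of DICER1-AS, on the opposite strand, held 5.37 and 9.02 RPKM in the PARS-seq controls and 6.60 and 7.51 in KD, a log2 difference of 0.0094 ± 0.22. The PARS-seq call of DICER1 was lost without KD replicate 2 (adjusted p = 0.1001) and without the filter on low values (adjusted p = 0.0961).

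TARBP2 and DGCR8, which partner the 2 ribonucleases, both rose in PARS-seq. TARBP2, the partner of DICER1, was at 14.7 and 18.1 RPKM in the control and 25.4 and 27.3 in the KD columns, a rise of 0.66 ± 0.17 on the log2(RPKM + 1) scale (limma, adjusted p = 0.0388). Its RNA-seq value was 28.1 RPKM in the control and 38.6 in the KD library, a log2 difference of 0.44 that stayed inside 1.5-fold. DGCR8, the partner of DROSHA, rose from 5.47 and 6.21 to 8.67 and 9.74 RPKM in PARS-seq, by 0.58 ± 0.16 (limma, adjusted p = 0.0422). Its RNA-seq values were 11.7 and 12.9 RPKM, a log2 difference of 0.13. TRMT2A, whose exons overlap DGCR8 on the other strand, was at 9.23 and 11.5 RPKM in the PARS-seq controls and 11.2 and 14.4 in KD, a log2 difference of 0.28 ± 0.19 (limma, adjusted p = 0.334). Both calls were lost when columns were centred on their medians (adjusted p = 0.05004 for TARBP2 and 0.0552 for DGCR8) and without the filter (0.0965 and 0.110). Without KD replicate 1, KD replicate 2 or control replicate 1 the adjusted p was 0.0505, 0.130 and 0.186 for TARBP2 and 0.0516, 0.190 and 0.191 for DGCR8.

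DROSHA stayed within a narrow range where its partner rose. It was at 74.9 and 78.6 RPKM in the PARS-seq controls and at 75.2 and 77.1 in the KD columns. The KD values lay between the controls, and the log2 difference was −0.012 ± 0.17 (limma, adjusted p = 0.968). Ribo-seq gave 22.1 and 18.7 RPKM in the controls and 25.3 and 19.3 in KD, and RNA-seq gave 38.1 and 36.0 RPKM. PRKRA, the other partner of DICER1, was at 10.8 and 10.01 RPKM in control and at 11.96 and 11.4 in KD PARS-seq columns. Both KD values were above both controls, but the log2 difference of 0.15 ± 0.15 missed the threshold (limma, adjusted p = 0.526). In RNA-seq PRKRA was at 12.7 and 16.1 RPKM, a log2 difference of 0.32 that was also inside 1.5-fold.

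Among the remaining members no PARS-seq difference passed the test. STAU1 was at 24.2 and 27.3 RPKM in the control and 31.8 and 35.2 in the KD columns, with no overlap and a log2 difference of 0.37 ± 0.17 (limma, adjusted p = 0.171). STAU2, the lowest of the set, was at 3.41 and 2.69 RPKM in control and 2.98 and 2.01 in KD, with a difference of −0.22 ± 0.18. The groups of STAU2 overlapped, and the difference ran from −0.42 to −0.018 with 1 column left out. DHX9 was at 42.0 and 38.0 RPKM in control and at 47.0 and 42.7 in KD, a log2 difference of 0.16 ± 0.17 that was 0.091 without control replicate 2 and 0.094 without KD replicate 1. ILF2 was at 316 and 311 RPKM in control and at 309 and 331 in KD, a log2 difference of 0.028 ± 0.18 whose sign turned when columns were centred.

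Over the set, 3 of 9 genes were called in PARS-seq, 2 higher and 1 lower in KD, where 15.5% of the 11153 genes tested were called (8.06% higher and 7.43% lower). All 9 passed the filter of a mean of 1 RPKM. The count of members called was 0 without this filter and 1 with columns centred on their medians. Both KD values were above both controls for 5 members (STAU1, DHX9, TARBP2, PRKRA and DGCR8), as for 33.3% of all genes, and below both controls for DICER1, as for 27.1%. The median difference of the members was 0.15 on the log2(RPKM + 1) scale and that of all genes 0.039. Without control replicate 2 the member median was 0.091, and without KD replicate 1 it was 0.094. It was 0.185 without KD replicate 2 and 0.205 without control replicate 1. In RNA-seq, with 1 library per condition, the medians were 0.096 for the members and −0.014 for all genes.

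**Figure D2:**
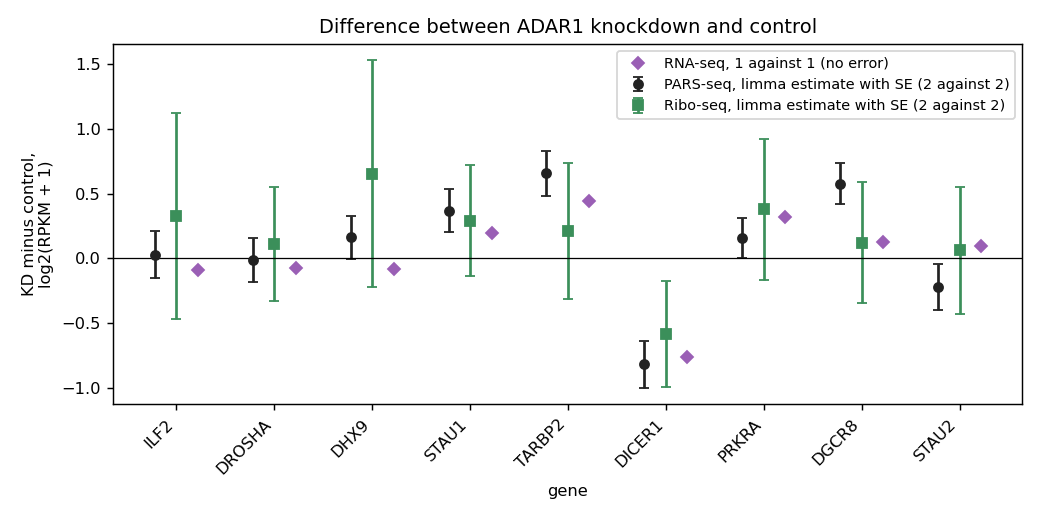
Difference between KD and control on the log2(RPKM + 1) scale for each gene, with limma estimates and standard errors for PARS-seq and Ribo-seq (2 against 2) and single differences for RNA-seq. DICER1 lies below 0 in all 3 assays, TARBP2 and DGCR8 lie above 0 in PARS-seq, and the Ribo-seq errors, from 0.41 to 0.88, are wider than those of PARS-seq.

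In Ribo-seq no member was called. Nor was any of the 10882 genes tested (0%), with 43 at an unadjusted p under 0.05 in limma. The spread between replicates was wide, above all for ILF2 and DHX9. ILF2 was at 384 RPKM in control replicate 1 and 132 in control replicate 2, and at 385 and 208 in the KD libraries. DHX9 was at 67.5 and 16.6 RPKM in the controls and 88.1 and 32.4 in KD. In both genes each replicate 1 library was above each replicate 2 library, and the log2 differences of 0.33 ± 0.80 and 0.65 ± 0.88 were smaller than their errors. Without the library labelled KD replicate 2 the log2 difference was −0.77 ± 0.79 for DICER1 and 1.36 ± 1.20 for DHX9. The other 7 members then lay above 0, from 0.040 (DGCR8) to 0.77 (ILF2), and no member was called. Only DICER1 (below 0) and STAU1 (above 0) kept their sign whichever single library was left out. Without control replicate 2 the difference was −0.44 for ILF2, −0.12 for STAU2, −0.33 for DHX9, −0.22 for PRKRA and −0.0017 for DROSHA, and without the library labelled KD replicate 1 it was also negative for ILF2, STAU2, DHX9 and DROSHA. Without control replicate 1 it was −0.36 for TARBP2 and −0.32 for DGCR8. The member median, 0.21 with all libraries, was −0.12 without control replicate 2 and −0.054 without the library labelled KD replicate 1.

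STAU1 had 17.3 and 16.4 RPKM of footprints in the controls and 24.0 and 18.2 in KD, with no overlap and a log2 difference of 0.29 ± 0.43, which was 0.099 without the library labelled KD replicate 1 and 0.48 without that labelled KD replicate 2. PRKRA had 19.4 and 7.90 RPKM in the controls against 17.4 and 15.7, and STAU2 had 3.73 and 2.66 against 4.93 and 2.18. Both sets of values overlapped. TARBP2, called higher in PARS-seq, had 6.06 and 14.7 RPKM in the controls and 11.1 and 11.3 in KD, so that both KD values lay between the controls. The same held for DGCR8, with 2.89 and 6.13 against 4.41 and 5.06 RPKM. Both KD values were above both controls for 1 member, STAU1, as for 10.7% of all genes, and below for DICER1, as for 7.12%.

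Whether the KD difference was unlike between the assays was tested by an interaction term over the 8 PARS-seq and Ribo-seq columns. None of the 9 members and none of the 10339 genes (0%) passed it, with 163 genes at an unadjusted p under 0.05 in limma. The Ribo-seq difference minus the PARS-seq difference was −0.44 ± 0.55 for TARBP2, −0.46 ± 0.46 for DGCR8 and 0.24 ± 0.37 for DICER1. Without the library labelled KD replicate 2 of Ribo-seq these were −0.45, −0.54 and 0.049. Over all single libraries left out they ran from −1.02 to 0.13, from −0.89 to −0.019 and from 0.040 to 0.43, in the same order. The errors leave room for differences as large as the PARS-seq changes themselves, so that the calls in PARS-seq cannot be read as particular to that assay.

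The ratio of Ribo-seq to RNA-seq levels, both with 1 RPKM added, describes footprints per transcript, and with 1 RNA-seq library per condition it was taken as a value without a test. Its second KD value is from the library labelled KD replicate 2, in which ADAR was not below both controls. TARBP2 had ratios of 0.243 and 0.539 in the controls and 0.306 and 0.311 in KD, and DGCR8 had 0.305 and 0.560 in the controls and 0.389 and 0.435 in KD. Both were the lowest members in control replicate 1 but not in control replicate 2, and the mean of both controls put them at percentiles 14.8 and 21.0 of the 10142 genes compared. The controls of STAU1 were 0.565 and 0.537 and those of DROSHA 0.591 and 0.505, at percentiles 36.7 and 36.3. DICER1 stood at the other end, with 1.37 and 1.51 in the controls (percentile 84.3) and 1.43 and 1.85 in KD. So the DICER1 ratio was not lower in KD, where both of its levels were.

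For ILF2, DHX9 and PRKRA, as for TARBP2 and DGCR8, the ratio differed widely between the control libraries. ILF2 had 1.79 and 0.615 in the controls and 1.91 and 1.03 in KD, and DHX9 had 2.28 and 0.585 in the controls and 3.14 and 1.18 in KD. PRKRA had 1.49 and 0.651 against 1.07 and 0.977, and STAU2 had 1.37 and 1.06 against 1.61 and 0.865. The difference between KD and control on the log2 scale had opposite signs in replicates 1 and 2 for STAU1, STAU2, TARBP2, PRKRA and DGCR8, where the value of replicate 2 uses the library labelled KD replicate 2, and was positive in both for ILF2, DHX9, DICER1 and DROSHA. The median over the members was 0.25 in replicate 1 and 0.12 in replicate 2, and that over all genes 0.0054 and 0.18, so the order of the medians turned between replicates.

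**Figure D3:**
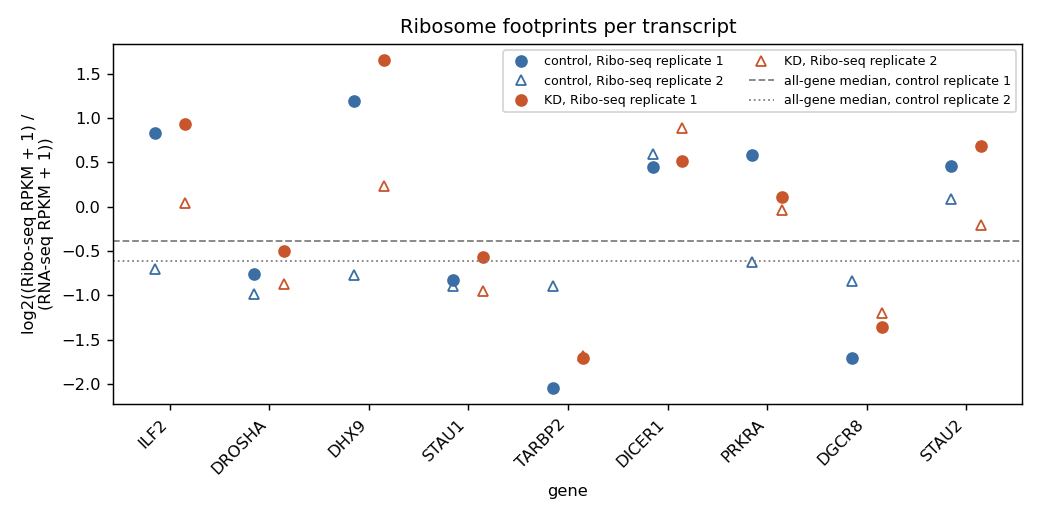
Log2 ratio of Ribo-seq to RNA-seq RPKM, each with 1 added, for every gene in the 2 Ribo-seq libraries labelled control (blue) and the 2 labelled KD (orange), with the medians of all genes in the controls as grey lines. TARBP2 and DGCR8 lie below and DICER1 and STAU2 above both grey lines in all 4 libraries, while ILF2, DHX9 and PRKRA split by replicate in control.

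The rest of the pathway was read from a pair of lists. Of 10 other double-stranded RNA-binding proteins, 9 were high enough to test in PARS-seq, and 1 rose, none fell and 8 did not pass, where 8.06% of all genes rose and 7.43% fell. STRBP, which carries double-stranded RNA-binding domains, rose from 4.09 and 3.65 to 6.15 and 5.89 RPKM, by 0.53 ± 0.14 (limma, adjusted p = 0.0436). The median difference of this list was 0.13.

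Of 23 proteins that export, use or regulate microRNAs, 21 were tested in PARS-seq, and 2 rose, none fell and 19 did not pass. DDX20, a helicase of the SMN complex, rose from 15.5 and 15.1 to 24.5 and 22.8 RPKM, by 0.60 ± 0.16 (limma, adjusted p = 0.0393). DIS3L2, the exonuclease that degrades uridylated pre-let-7, rose from 7.03 and 7.498 to 11.6 and 11.1 RPKM, by 0.58 ± 0.15 (limma, adjusted p = 0.0378). The median difference of this list was 0.0997. No gene of either list was called in Ribo-seq. Over the members and both lists, 1 of 39 genes tested, DICER1, was called lower in PARS-seq, where 7.43% of all genes were, so the count does not set DICER1 apart.

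**Figure D4:**
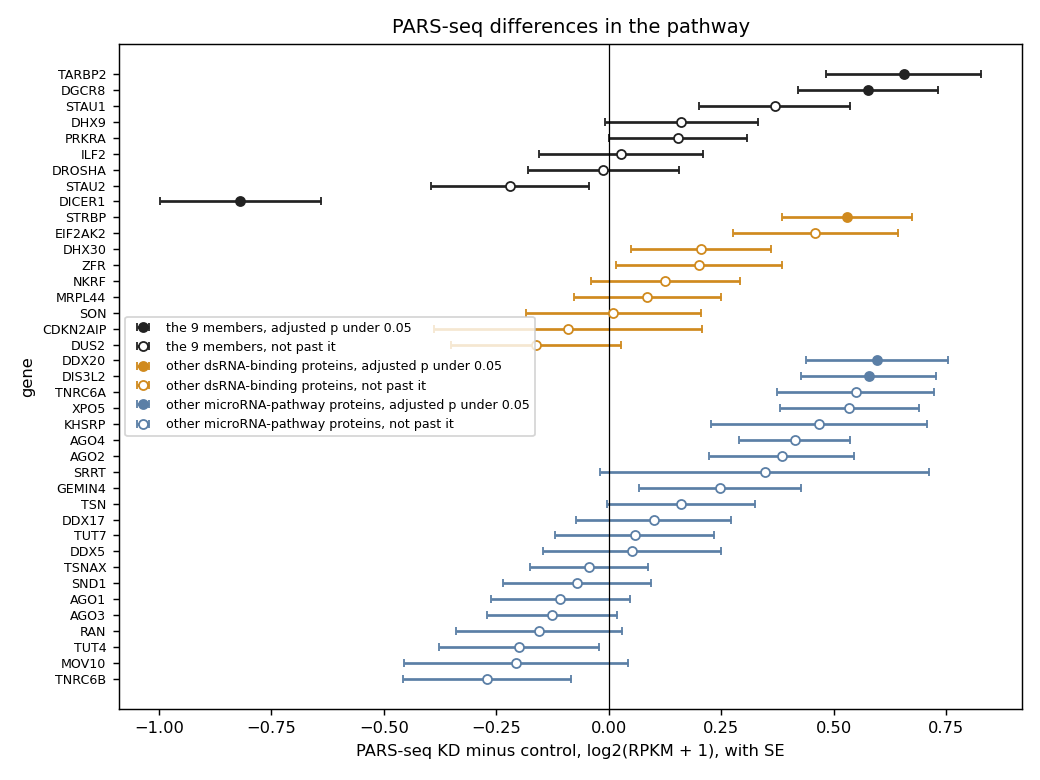
PARS-seq difference between KD and control with its standard error for the members (black), other double-stranded RNA-binding proteins (orange) and other microRNA-pathway proteins (blue), filled where the adjusted p from limma was under 0.05. DICER1, at −0.82, is the filled point to the left of 0, and 5 filled points lie to the right of it.

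Over the 10 columns the gene whose profile was most like that of DGCR8 was TARBP2, with a Pearson's r of 0.984 on log2(RPKM + 1) among the 4653 genes at 5 RPKM or more in every column. DGCR8, at 2.89 RPKM in 1 Ribo-seq library, was not itself among the genes searched, and of those the nearest to TARBP2 was PKN3 (0.970). WASL was nearest to DICER1 (0.990), HDHD1 to DROSHA (0.995), TERF2 to STAU1 (0.992) and NPC1 to ILF2 (0.985). The row of ZNF207, shared with MIR632, was nearest to DHX9 (0.981), ATP5J to PRKRA (0.959) and RAB6A to STAU2 (0.901). All genes share these columns, which differ in assay and library as well as in condition.

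Per-base read starts, which mark where a nuclease cut, could be assigned to DHX9, PRKRA and DROSHA, whose transcript identifiers are paired with symbols. That pairing comes from a list the study chose by base pairing in these libraries, keeping transcripts whose DS/(DS + SS), the share of paired bases described below, moved alike in both replicates, so values of base pairing are given without a test. Totals on the 4722 transcripts listed in all 8 libraries were 88565995 to 197781370 read starts. DROSHA (5424 bases) had 32891 and 32257 S1 read starts in the controls and 28162 and 20716 in KD, and 25178, 24776, 35375 and 27621 V1 read starts in the same order. DHX9 (4543 bases) had 29376, 24692, 28179 and 17576 with S1 and 17436, 13821, 27648 and 17135 with V1. PRKRA (1826 bases) was much sparser, with 1836, 1475, 1532 and 1099 with S1 and 1363, 1322, 2353 and 1700 with V1, which is 0.602 to 1.29 read starts per base.

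Scaled to library totals, the S1 difference between KD and control was −0.24 ± 0.25 for DHX9, −0.31 ± 0.35 for PRKRA and −0.40 ± 0.25 for DROSHA on the log2 scale, while the median of all 4721 transcripts was −0.36. Without control replicate 1 the differences were −0.065, −0.10 and −0.33, and without control replicate 2 −0.41, −0.51 and −0.46. With TMM scaling that median was 0.0045 and the S1 differences of DHX9 and PRKRA turned to 0.12 and 0.055. The V1 differences were −0.010 ± 0.34, 0.077 ± 0.32 and −0.17 ± 0.34 against a median of −0.14 over 17206 transcripts, which became 0.052 with TMM scaling, where the DHX9 difference turned to 0.18 and that of DROSHA to 0.016. None of the 3 was called with either nuclease, where 20.1% of all transcripts were called with S1 (70 higher and 878 lower, or 306 and 438 with TMM scaling) and 9.64% with V1 (345 and 1314, or 676 and 993). The V1 difference minus the S1 difference was 0.22 ± 0.40 for DHX9, 0.38 ± 0.47 for PRKRA and 0.22 ± 0.40 for DROSHA. Since the list was chosen by base pairing, these balances of V1 to S1 are values without a test.

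The most cut bases were mostly shared by the libraries of a nuclease. In DHX9 the base most often cut by S1 was base 2477 of the transcript in all 4 libraries, with 6.84% to 7.34% of its S1 read starts, and the base most often cut by V1 was base 2515, with 2.97% to 3.85%. In DROSHA the top S1 base was 3583 in control replicate 1, with 9.67%, and base 3014 in the other S1 libraries, with 7.68% to 8.26%. Its top V1 base was 2992 in every library. In PRKRA the top S1 base was 975 throughout, with 11.4% and 10.8% in the controls and 7.96% and 8.55% in KD, and the top V1 base was 967 in all but KD replicate 2, where it was 1333.

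Most read starts of the longer transcripts fell in the middle 20% of their length and the 20% after it. The middle 20% of the DROSHA transcript held 42.3% to 46.2% of S1 and 46.4% to 52.2% of V1 read starts, the next 20% held 37.8% to 42.7% of S1 and 24.2% to 29.8% of V1 read starts, and the last 20% held at most 3.90% with either nuclease. For DHX9 the middle 20% held 40.5% to 42.9% of S1 and 35.0% to 40.2% of V1 read starts, and the next 20% held 32.8% to 38.4% and 25.6% to 32.2%. PRKRA had 25.7% to 35.6% of S1 read starts in its middle 20%. Of its bases, 15.1% to 17.0% were cut at least once by S1, against 30.3% to 37.5% in DHX9, at 0.602 to 1.01 S1 read starts per base in PRKRA and 3.87 to 6.47 in DHX9.

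**Figure D5:**
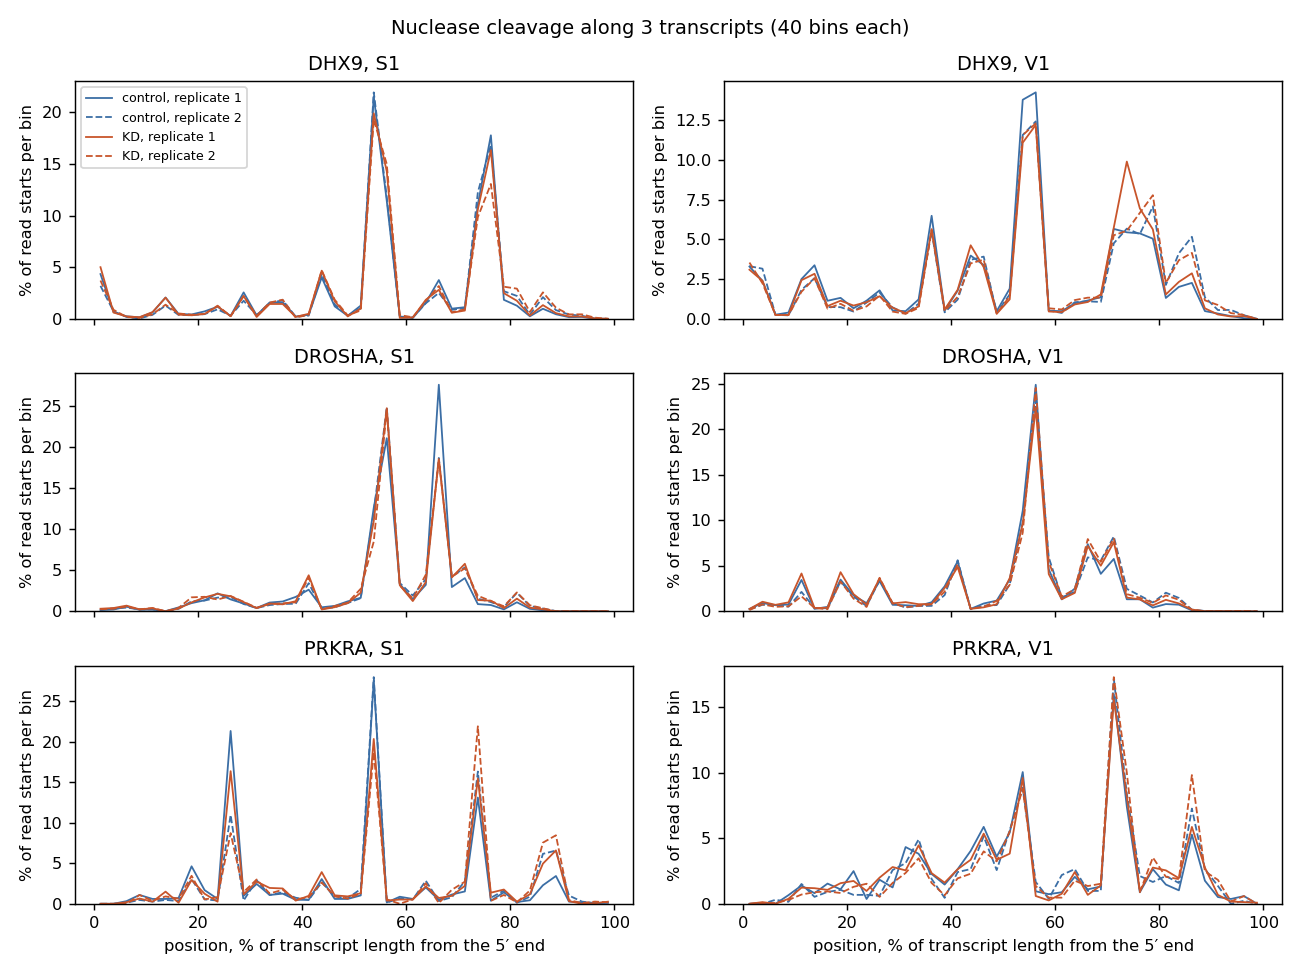
Share of each library's read starts (%) in 40 equal bins along the transcripts of DHX9, DROSHA and PRKRA from the 5′ end, with S1 on the left and V1 on the right, control in blue, KD in orange, replicate 1 solid and replicate 2 dashed. The main peaks recur between libraries, but the highest bin differs in DROSHA with S1 (control replicate 1) and in PRKRA with S1 (KD replicate 2), and the later V1 peak of DHX9 differs in place and height.

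A base was called double-stranded (DS) or single-stranded (SS) where V1 and S1 read starts departed from the ratio of the library totals in a two-sided exact binomial test at p under 0.05. DROSHA had 570 DS and 302 SS bases in control replicate 1, and its DS/(DS + SS) was 0.654 and 0.606 in the controls and 0.605 and 0.655 in KD. That of DHX9 was 0.572 and 0.560 in the controls and 0.557 and 0.591 in KD, and that of PRKRA 0.529 and 0.552 against 0.525 and 0.608, on 67 to 122 called bases. All 3 were lower in KD in replicate 1 and higher in replicate 2. Set against the V1 and S1 totals of the transcript instead, all 3 were lower in KD in both replicates, with 0.736 and 0.740 against 0.713 and 0.672 in DHX9, 0.656 and 0.615 against 0.525 and 0.438 in PRKRA, and 0.727 and 0.691 against 0.681 and 0.649 in DROSHA, as for 56.8% of 4468 transcripts. These 3 came from a list that kept transcripts moving alike in both replicates, so their agreement here was partly fixed by that choice. The 4468 transcripts were not chosen in that way. With library totals, over 4464 transcripts the medians were 0.575 and 0.565 in the controls and 0.523 and 0.581 in KD, and 34.9% were lower and 10.7% higher in KD in both replicates.

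CorDiff is the summed squared correlation of profiles within conditions minus that between conditions, so a value above 0 means that profiles agreed better within conditions. With S1 it was 0.034 for DHX9, 0.021 for PRKRA and 0.016 for DROSHA, and it was above 0 for 41.4% of 4720 transcripts. With V1 it was −0.033, −0.078 and −0.026, and above 0 for 9.36% of transcripts. When each control was set against the KD library of the other number, V1 CorDiff turned to 0.0036 for PRKRA and 0.0050 for DROSHA, and S1 CorDiff of PRKRA moved to 0.13. The correlation between replicate controls was 0.991 with S1 and 0.955 with V1 in DHX9, 0.960 and 0.968 in DROSHA, and 0.948 and 0.866 in PRKRA. Correlations of a control with the KD library that bears its number ran from 0.872 to 0.992 over the 3 transcripts.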

How the data were processed

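Groups and replicate numbers were taken from the labels. Per the labels and the study's methods, the authors trimmed reads with cutadapt, aligned them with Bowtie2 to hg19 (GRCh37), counted unique reads on RefSeq transcripts and deposited RPKM; PARS-seq RPKM are the authors' means over the S1 and V1 library of a replicate. Deposited read starts are whole numbers per base of UCSC transcripts, not normalized. The RPKM table carries no read numbers, and totals the study lists for PARS-seq were not used here. From the most common ratio among the lowest genes, Ribo-seq KD replicate 1, control replicate 2 and KD replicate 2 had 1.41, 3.34 and 2.42 times the depth of control replicate 1, and the RNA-seq KD library 0.742 times that of its control. S1 control replicate 1 lists 4722 transcripts, other libraries 21052 to 22402, and 1 transcript takes 26.0% to 59.3% of read starts.

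RPKM of at least 1 on average were tested as log2(RPKM + 1) with limma 3.58.1 (R 4.3.3, mean trend, Benjamini-Hochberg), read starts as log2 of counts scaled to library totals with 0.5 added, for transcripts with 10 or more in 2 libraries. Scripts were tested on simulated data with changes larger than those of the members, so the power to find changes of their size was not tested. Named genes were all members, ADAR, list genes past an adjusted p of 0.05 (at most 5 per list) and the nearest profile of each member. Members and lists were chosen with earlier results of these data known. Alternatives were another pseudocount, no filter, centring, TMM scaling, a replicate block and leaving out libraries. The 6 members without a paired transcript identifier were not analysed in the read starts. 1 gene of a list is not reported here.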

Additional observations from a re-analysis of the deposited data

How the results depend on the processing

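The count of members called in PARS-seq, 3 in the report, was 0 without the filter on low values, where 19048 genes were tested and 546 called, and 1 with columns centred on their medians. It was 0 to 3 over the 4 fits that left out 1 column, in which the lone column is assumed to vary like the other group. Among the 7 members named alone in their row, an alternative chosen after seeing the data, 1 was called (TARBP2). Counts of 0 members in Ribo-seq, S1 and V1 read starts and the assay interaction stayed 0 in every alternative run. Same-numbered libraries deviated together (correlation 0.658 in PARS-seq, 0.811 in Ribo-seq, 0.467 with S1 and 0.363 with V1), but the labels give only numbers. With the replicate block 4 members were called in PARS-seq, STAU1 (adjusted p = 0.00998) being added, 5656 genes against 1728 passed, and 143 against 0 in Ribo-seq, where no member passed. No RNA-seq member was past 1.5-fold with a pseudocount of 5. The median Ribo-seq over RNA-seq difference was 0.25 from Ribo-seq replicate 1 alone. The median DS/(DS + SS) difference was −0.0457 against transcript totals. CorDiff with V1 turned to 0.00359 for PRKRA and 0.00501 for DROSHA with the other pairing, and S1 CorDiff of PRKRA moved to 0.13. The ILF2 difference in PARS-seq was −0.0087 when centred. With read starts scaled without the most covered transcript, the S1 differences were 0.11 for DHX9 and 0.047 for PRKRA and the V1 differences 0.26 for DHX9 and 0.094 for DROSHA, and with TMM scaling 0.12, 0.055, 0.18 and 0.016. Leaving out 1 library, values that changed sign ranged from −0.022 to 0.078 (ILF2) and −0.046 to 0.022 (DROSHA) in PARS-seq. In Ribo-seq they ranged from −0.44 to 1.10 (ILF2), −0.39 to 0.51 (STAU2), −0.33 to 1.64 (DHX9), −0.36 to 0.79 (TARBP2), −0.22 to 0.98 (PRKRA), −0.074 to 0.30 (DROSHA) and −0.32 to 0.56 (DGCR8). The Ribo-seq minus PARS-seq difference of TARBP2 ranged from −1.02 to 0.13, the V1 differences from −0.20 to 0.18 (DHX9), −0.092 to 0.25 (PRKRA) and −0.40 to 0.052 (DROSHA), and the V1 minus S1 difference of DROSHA from −0.024 to 0.46. None of these was called. Apart from what the construction of an alternative shows, the cause was not tested.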
